A study of Mus musculus with 12 samples.

Results

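The collagen genes of the mouse were followed through the liver and the esophagus of mice that carried a doxycycline-inducible Nanog transgene at the Col1a1 locus. Members were all non-control probes whose RefSeq accession maps to a symbol made of Col, a number, the letter a and a number, with Col17a1 left out, which gave 37 of the 16531 named genes on the array, measured by 61 of its 41174 probes. The 12 arrays came from 6 male mice of a mixed 129Sv/C57BL6 background, about 8 months old, with 1 array per organ and mouse. The 3 TG mice were Col1a1tetO-Nanog/+;Rosa26rtTA/+, so that 1 of their Col1a1 alleles held the transgene, and the rtTA activator stood at the broadly active Rosa26 locus. The 3 CTR mice were Col1a1+/+;Rosa26rtTA/+, with the activator and no transgene. Both genotypes drank doxycycline at 0.2 mg/ml in 7.5% sucrose for 48 h, so the drug and the activator were common to all 4 groups. The groups were esophagus TG, esophagus CTR, liver TG and liver CTR, with 3 mice each, called TG1 to TG3 and CTR1 to CTR3.

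Collagens are matrix proteins built from chains that wind into a triple helix. The fibrillar types I, III and V form the tensile fibres of connective tissue, type IV forms the network of basement membranes, type VI forms beaded filaments around cells, and type VII forms the anchoring fibrils that fasten stratified epithelium to the tissue beneath it. The esophagus is a muscular tube with a stratified epithelium on a thick connective tissue, whereas a healthy liver holds little fibrillar collagen, made largely by stellate cells and portal fibroblasts. In a bulk sample, fewer cells of a type and less RNA per cell cannot be told apart.

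Levels are given as normalized log2 signal, which is the scanner's processed signal in log2 after subtraction of each array's own 75th percentile. A difference of 1 is a doubling, and levels of different probes are not comparable with each other, so only differences within a probe are set side by side. The share of probes well above background was lowest in liver CTR3 (57.1%) and highest in liver TG3 (82.2%). Precision is limited by the number of arrays. Liver TG3 stood apart in that dim probes read high on it: the second Col14a1 probe read -2.41 there, against -7.43 and -7.41 in the other TG livers and -7.66 to -6.25 in CTR livers. The hepatocyte list had medians of 7.53 to 8.07 in livers and the keratinocyte list 5.33 to 5.78 in esophagi, so each organ showed the markers of its label. Nanog itself had 1 probe, which stayed at background level on all 12 arrays, so that induction of the transgene could not be checked with it.

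Of the 37 collagen genes, 32 were well above background on all 3 esophagus TG arrays and 35 on all 3 esophagus CTR arrays, with 26 in liver TG and 24 in liver CTR. Col10a1, the collagen of hypertrophic cartilage, and Col6a6, a chain of type VI collagen, reached this on all 3 arrays of no group and were not tested. In liver, 11 of the 37 genes could not be tested between TG and CTR.

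The collagens differed far more between the organs than between the genotypes. In CTR mice 21 of 35 tested members were higher in esophagus and 5 were lower in esophagus (limma, Benjamini-Hochberg adjusted p under 0.05), where 27.8% of all 23369 tested genes were called higher and 34.6% lower. In TG mice, which share no array with the CTR mice, 19 of 33 were higher in esophagus and 7 were lower, where 24.3% and 38.9% of 23916 genes were called. The same 19 genes were called higher, and the same 5 lower, in both genotypes. The median difference, esophagus minus liver, was 1.76 over the members and -0.36 over all genes in TG mice, and 1.33 and -0.14 in CTR mice. These medians cover only tested genes, and a gene could be tested through the organ where it is high. Without the filter on dim probes the median over all 37 members was 0.98 in TG mice and 1.29 in CTR mice. Over all genes it was then -0.82 and -0.57. The order of the genotypes thus depended on the filter. RNA was extracted by different procedures in the 2 organs, a fibrous-tissue kit for the esophagus and Trizol followed by column purification for the liver, and the effects of organ and procedure cannot be told apart.

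**Figure D1:**
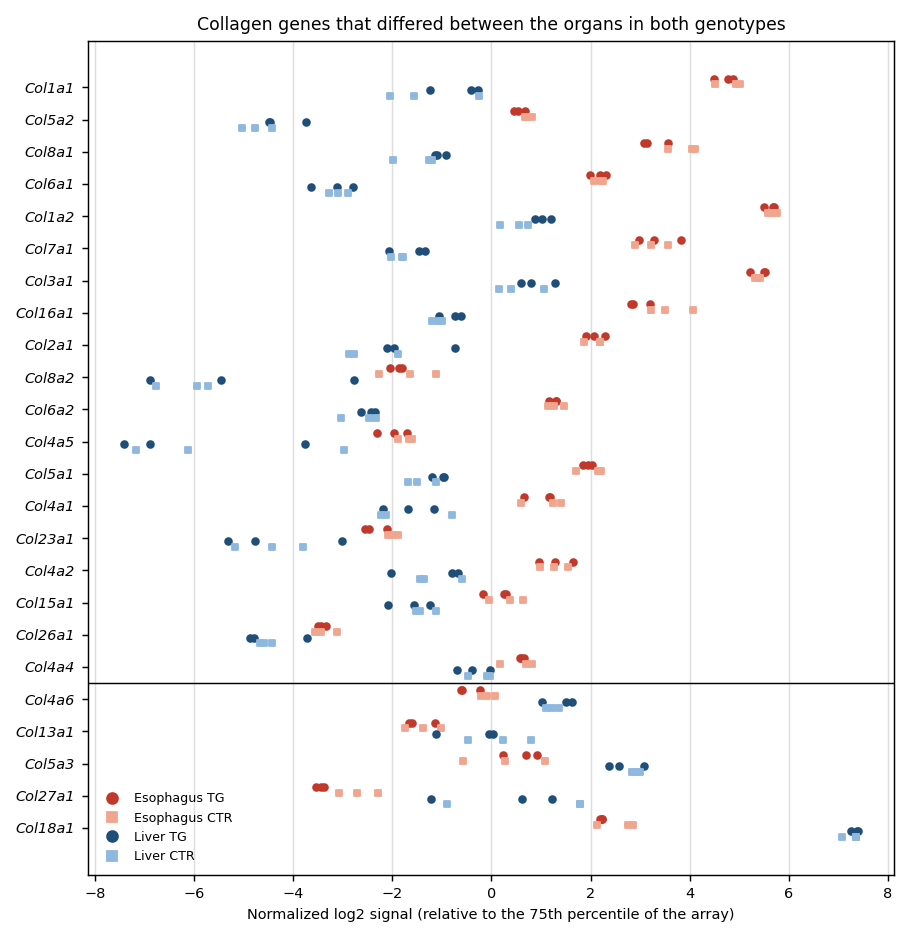
Normalized log2 signal (horizontal axis) of the 24 collagen genes called between the organs in both genotypes, 1 row per gene and 1 point per array; red is esophagus TG, light red esophagus CTR, dark blue liver TG and light blue liver CTR. Above the line, 19 genes have their esophagus points to the right of their liver points; below it, 5 genes, with Col18a1 the farthest apart, have them to the left within each genotype, and rows are not comparable with each other.

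Type I collagen, the main fibre protein of connective tissue, is a trimer of the chains encoded by Col1a1 and Col1a2. The brightest of the 3 Col1a1 probes (NM_007742) read 4.50, 4.77 and 4.88 in TG esophagi and 5.02, 4.52 and 4.92 in CTR esophagi. It read -0.27, -0.40 and -1.25 in TG livers and -0.26, -1.57 and -2.04 in CTR livers. Every esophagus thus lay above every liver. Esophagus minus liver was 5.35 (SE 0.42, limma adjusted p = 1.41e-06) in TG mice and 6.11 (SE 0.42, limma adjusted p = 5.03e-07) in CTR mice, folds of 40.9 and 69.1.

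Col1a2 encodes the partner chain of type I collagen. Its single probe read 5.50, 5.69 and 5.69 in TG esophagi and 5.65, 5.57 and 5.76 in CTR esophagi, against 1.19, 0.88 and 1.01 in TG livers and 0.74, 0.57 and 0.18 in CTR livers. The organs did not overlap, and they differed 24.2-fold in TG mice and 35.9-fold in CTR mice. Col3a1, the type III collagen of extensible tissues, read 5.21, 5.51 and 5.52 in TG esophagi and 5.43, 5.31 and 5.39 in CTR esophagi. In the livers it read 1.28, 0.80 and 0.59 with the transgene and 1.06, 0.16 and 0.39 without it. The organ folds of Col3a1 were 23.0 in TG mice and 28.7 in CTR mice.

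**Figure D2:**
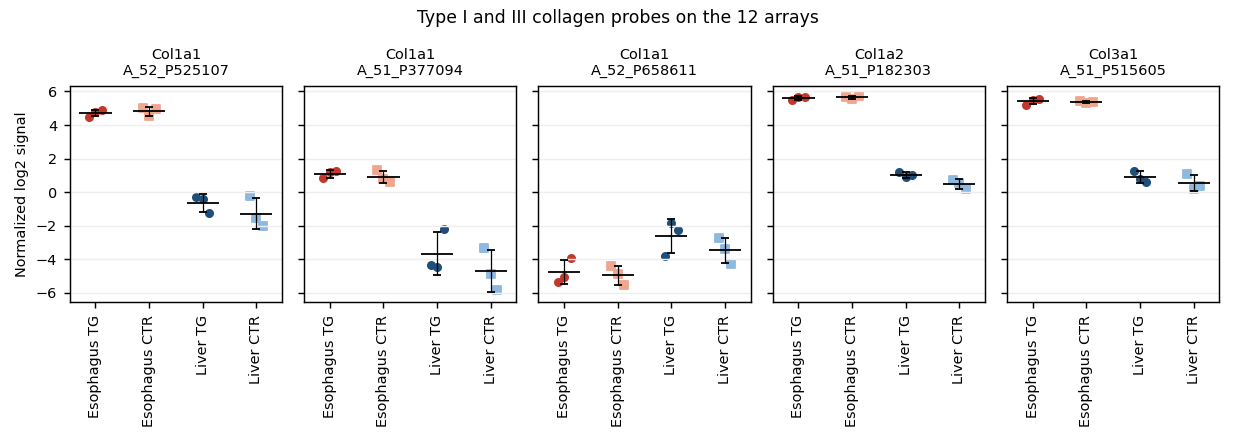
Normalized log2 signal (vertical axis) of the 3 Col1a1 probes, Col1a2 and Col3a1 on the 12 arrays, with points for mice, a long bar for the group mean and error bars of 1 SD (n = 3). The other panels have the esophagi above the livers, whereas the third Col1a1 probe has them below within each genotype.

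Promoter windows of 4 members called between the organs are shown next, since these genes separated the organs on all 12 arrays. The windows are from RefSeq (GRCm38.p6) and hold 300 bases around an annotated start, written 5′ to 3′ on the strand of the gene. Capitals mark matches, on either strand, to 3 motifs: TATAAA, the core of the TATA box; CCAAT; and GGGCGG, the core of the GC box. Col1a2 lies at chr6:4505368-4505667 (plus strand), Col3a1 at chr1:45311288-45311587 (plus strand) and Col4a2 at chr8:11312555-11312854 (plus strand). Col18a1, the member with the highest liver signal relative to its esophagus signal, has an upstream start at chr10:77166481-77166780 and an internal start at chr10:77113656-77113955, both on the minus strand.
Col1a2: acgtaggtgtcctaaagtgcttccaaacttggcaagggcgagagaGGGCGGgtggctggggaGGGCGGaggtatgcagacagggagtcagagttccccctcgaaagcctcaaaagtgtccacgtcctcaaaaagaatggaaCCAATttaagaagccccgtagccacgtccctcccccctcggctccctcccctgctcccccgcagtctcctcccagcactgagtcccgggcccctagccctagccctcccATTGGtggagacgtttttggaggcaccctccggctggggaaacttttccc
Col3a1: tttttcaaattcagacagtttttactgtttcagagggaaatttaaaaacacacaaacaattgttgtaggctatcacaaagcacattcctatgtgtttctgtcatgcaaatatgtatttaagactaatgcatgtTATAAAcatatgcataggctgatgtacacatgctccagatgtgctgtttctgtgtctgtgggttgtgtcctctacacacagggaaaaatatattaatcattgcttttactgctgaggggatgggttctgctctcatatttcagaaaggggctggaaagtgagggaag
Col4a2: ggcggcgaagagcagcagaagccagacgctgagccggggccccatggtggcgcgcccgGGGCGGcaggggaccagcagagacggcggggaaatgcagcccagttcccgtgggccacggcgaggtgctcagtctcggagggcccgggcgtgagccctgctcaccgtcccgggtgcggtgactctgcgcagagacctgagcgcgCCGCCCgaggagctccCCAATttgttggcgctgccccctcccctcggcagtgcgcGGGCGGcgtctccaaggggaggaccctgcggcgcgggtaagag
Col18a1 upstream: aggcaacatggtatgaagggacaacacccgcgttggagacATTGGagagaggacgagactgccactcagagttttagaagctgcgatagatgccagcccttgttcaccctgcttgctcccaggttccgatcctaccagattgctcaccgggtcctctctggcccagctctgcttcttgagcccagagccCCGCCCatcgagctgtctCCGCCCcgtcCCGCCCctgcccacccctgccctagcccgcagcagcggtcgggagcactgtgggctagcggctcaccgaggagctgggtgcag
Col18a1 internal: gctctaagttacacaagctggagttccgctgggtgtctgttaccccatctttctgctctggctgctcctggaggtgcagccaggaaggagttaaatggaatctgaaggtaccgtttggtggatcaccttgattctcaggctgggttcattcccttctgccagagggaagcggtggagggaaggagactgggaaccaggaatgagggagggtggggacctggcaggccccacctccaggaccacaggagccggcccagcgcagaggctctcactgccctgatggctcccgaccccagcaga

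The Col1a2 window holds 2 CCAAT and 2 GGGCGG matches, and the Col3a1 window holds 1 TATAAA match and neither of the others. The Col4a2 window holds 3 GGGCGG matches and 1 CCAAT match, and it shares 78 bases with the window of Col4a1, which starts the other way. The upstream Col18a1 window holds 3 GGGCGG matches and 1 CCAAT match, while the internal one holds none of the 3 motifs. RefSeq windows were matched for 30 of the 37 genes, 33 windows in all. GGGCGG was in 63.6% of these 33 windows and in 35.7% of all 32851 windows, CCAAT in 33.3% and 37.4%, and TATAAA in 12.1% and 13.6%. The median GC content was 60.3% in the members' windows and 52.7% in all windows. Matches overlapped in 2 of the 33 windows, neither of them printed here, and a match is a description of letters, not a bound site.

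The other fibrillar collagens divided between the organs. Col5a2, a chain of the type V collagen that starts fibrils, read 0.45, 0.68 and 0.53 in TG esophagi and 0.83, 0.68 and 0.71 in CTR esophagi, against -4.46, -4.48 and -3.75 in TG livers and -4.76, -4.43 and -5.04 in CTR livers. It was above background on 2 of 3 livers of each genotype, and its organ difference was 4.78 (SE 0.23) in TG mice and 5.48 (SE 0.23) in CTR mice. Col5a1, the main type V chain, differed by 2.98 in TG mice and 3.46 in CTR mice.

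Col5a3, a rarer chain of type V collagen, ran the other way with its brighter probe. It read 0.70, 0.91 and 0.24 in TG esophagi and 1.09, -0.57 and 0.27 in CTR esophagi. In livers it read 3.08, 2.58 and 2.38 in TG mice and 2.84, 2.99 and 2.92 in CTR mice, above every esophagus. The organ difference was -2.07 (SE 0.37, limma adjusted p = 0.00062) in TG mice and -2.65 (SE 0.37, limma adjusted p = 0.000107) in CTR mice. The second Col5a3 probe gave -0.67 in CTR mice and was not called (limma adjusted p = 0.450 over all probes). Of the 10 fibrillar members tested in TG mice 6 were higher in esophagus and 2 lower, where 24.3% and 38.9% of all genes were called. Of the 11 tested in CTR mice also 6 were higher and 2 lower, where 27.8% and 34.6% of all genes were. Col11a1 and Col11a2, chains of the cartilage collagen XI, passed in neither genotype.

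Col18a1 had the widest difference in favour of the liver. This gene encodes collagen XVIII, a basement membrane collagen with heparan sulfate chains, whose C-terminal fragment is endostatin and which hepatocytes are known to make. Its brighter probe read 2.22, 2.20 and 2.23 in TG esophagi and 2.86, 2.13 and 2.76 in CTR esophagi, against 7.38, 7.26 and 7.39 in TG livers and 7.07, 7.35 and 7.36 in CTR livers. Every liver lay above every esophagus. The difference was -5.13 (SE 0.20, limma adjusted p = 6.37e-09) in TG mice and -4.67 (SE 0.20, limma adjusted p = 1.21e-08) in CTR mice. Its second probe gave -5.20 in CTR mice. Col15a1, the other multiplexin, differed by 1.76 in TG mice and 1.68 in CTR mice in favour of the esophagus.

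Col27a1, a fibrillar collagen first known from cartilage, was lower in esophagus by a difference of -3.66 (SE 0.74) in TG mice and -3.59 (SE 0.74) in CTR mice, and varied widely among livers of both genotypes. Its brighter probe read -3.44, -3.54 and -3.38 in TG esophagi and -2.29, -3.08 and -2.72 in CTR esophagi, against 1.23, -1.21 and 0.61 in TG livers and -0.89, 1.78 and 1.78 in CTR livers. The 2 low livers were TG2 and CTR1, and the second Col27a1 probe was also lowest in them, at -3.21 in TG2 and -2.14 in CTR1, against -1.07 to 0.21 in the other livers. Without liver TG2 the organ difference in TG mice was -4.37, and without liver CTR1 that in CTR mice was -4.48. The clock gene Per2, chosen after its values were seen, read -1.73 in TG2 and -1.60 in CTR1, against 0.66 to 1.27 in the other 4 livers. The part of this in the Col27a1 values was not tested.

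**Figure D3:**
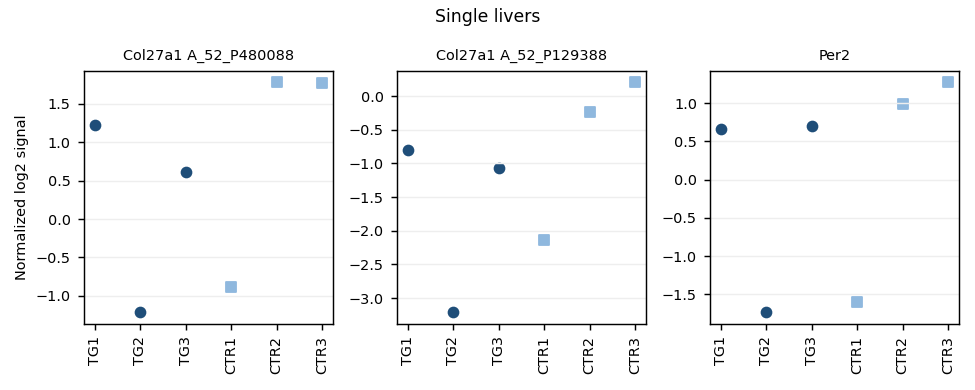
Normalized log2 signal (vertical axes, each with its own range) of both Col27a1 probes and of Per2 in the 6 livers, TG in dark blue and CTR in light blue. Livers TG2 and CTR1 are the lowest in all 3 panels.

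The other 2 members lower in esophagus in both genotypes were Col13a1 and Col4a6. Col13a1, a transmembrane collagen of cell adhesion sites, read -1.66, -1.13 and -1.61 in TG esophagi and -1.01, -1.74 and -1.37 in CTR esophagi, against -1.11, 0.03 and -0.04 in TG livers and -0.47, 0.24 and 0.79 in CTR livers. Its organ difference was -1.09 (SE 0.38, limma adjusted p = 0.0288) in TG mice and -1.56 (SE 0.38, limma adjusted p = 0.00466) in CTR mice. In TG mice the call was lost without liver TG2 (-0.89), liver TG3 (-0.92), esophagus TG1 (-0.99) or esophagus TG3 (-1.02). The second Col13a1 probe gave -0.33 in TG mice and -1.06 in CTR mice. It was called in neither (limma adjusted p = 0.774 and 0.339 over all probes).

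Basement membrane chains of type IV were mostly higher in esophagus, with 4 of 6 called higher and 1 lower in both genotypes. Of all genes 24.3% were called higher and 38.9% lower in TG mice, and 27.8% and 34.6% in CTR mice. The lower chain was Col4a6, whose other probe was at least 5.96-fold higher in esophagus in CTR mice. Col4a1 and Col4a2, the chains of nearly every basement membrane, are neighbours read in opposite directions. Col4a1 read 1.16, 1.19 and 0.66 in TG esophagi and 1.40, 0.61 and 1.24 in CTR esophagi, against -2.20, -1.17 and -1.69 in TG livers and -0.80, -2.12 and -2.23 in CTR livers. With the brighter probe of each gene the organ differences were close: 2.68 (SE 0.41) for Col4a1 and 2.46 (SE 0.37) for Col4a2 in TG mice, and 2.80 (SE 0.41) and 2.39 (SE 0.37) in CTR mice. The other probes lay farther apart, at 1.35 for Col4a1 and 2.73 for Col4a2 in TG mice, and 1.41 and 2.58 in CTR mice.

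Col4a5, a chain of the kidney and epithelial type IV network, differed by 4.03 (SE 1.07) in TG mice and 3.71 (SE 1.07) in CTR mice, with a liver signal above background on 1 of 3 arrays of each genotype. Single livers moved this value: it was 5.16 without TG3 and 3.34 without TG2 in TG mice, and 4.93 without CTR2 and 2.84 without CTR1 in CTR mice. Col4a4 differed by 0.98 in TG mice and 0.77 in CTR mice, and in CTR mice its call was lost without liver CTR2 (0.63) or esophagus CTR2 (0.64). Col4a3, another chain of that network, passed in neither genotype.

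Collagens VI, VII and VIII were higher in esophagus. Col6a1, a chain of the beaded filaments, read 1.99, 2.20 and 2.32 in TG esophagi and 2.24, 2.21 and 2.08 in CTR esophagi, against -2.80, -3.64 and -3.12 in TG livers and -3.09, -2.90 and -3.28 in CTR livers. Its organ difference was 5.35 (SE 0.22) in TG mice and 5.27 (SE 0.22) in CTR mice, and that of its neighbour Col6a2 was 3.73 (SE 0.20) and 3.91 (SE 0.20). Col7a1, the only chain of type VII collagen, read 3.83, 2.98 and 3.28 in TG esophagi and 3.21, 2.90 and 3.57 in CTR esophagi, against -1.45, -2.06 and -1.34 in TG livers and -1.78, -2.02 and -1.80 in CTR livers. This was a 31.6-fold difference in TG mice and a 34.1-fold difference in CTR mice.

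Col8a1 and Col8a2 encode short-chain collagens of vessel walls and of the membrane behind the cornea. Col8a1 was 19.9-fold higher in esophagus in TG mice and 41.5-fold higher in CTR mice. Col8a2 averaged -1.90 ± 0.13 (SD, n = 3) in TG esophagi and -1.68 ± 0.58 (SD, n = 3) in CTR esophagi, against -5.04 ± 2.09 (SD, n = 3) in TG livers and -6.14 ± 0.55 (SD, n = 3) in CTR livers. It was not well above background on any CTR liver, so that it was at least 9.87-fold higher in CTR esophagus, the bright mean set against each liver's lowest detected signal (limma adjusted p = 0.000736). In TG mice, where liver TG3 alone was above background, the difference was 3.14, or 4.27 without TG3 and 2.21 without TG1.

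Among the fibril-associated and transmembrane members, Col16a1, which sits on the surface of fibrils, differed 13.6-fold between organs in TG mice and 25.7-fold in CTR mice. Col14a1, another collagen on the surface of type I fibrils, was called in CTR mice only (0.95, SE 0.29, limma adjusted p = 0.0164; 0.58 and adjusted p = 0.108 in TG mice), and not without liver CTR1 (0.75) or esophagus CTR1 (0.81). Col28a1 was called in CTR mice (limma adjusted p = 0.0231), with no liver array above background, lost the call without liver CTR2 or esophagus CTR1, and was not tested in TG mice. Its mean in CTR esophagi (-5.43) lay below the mean of the CTR livers' lowest detected signals, so no least fold can be given. Col9a2 and Col9a3, chains of cartilage collagen IX, were called lower in esophagus in TG mice only, at -1.14 and -1.73, against -0.86 (limma adjusted p = 0.0938) and 0.02 in CTR mice. The Col9a2 call was lost with the animal as a block (-1.14, limma adjusted p = 0.067), and it was lost without liver TG2 (-1.10) or TG3, esophagus TG1 (-1.16) or esophagus TG2 (-0.99). Col23a1, a transmembrane collagen, was higher in esophagus by 1.99 in TG mice (2.66 without liver TG3) and 2.48 in CTR mice. Col26a1 was higher in esophagus by 1.04 in TG mice and 1.19 in CTR mice. Col9a1 and the fibrillar Col24a1 were not above background on any CTR liver and did not pass in CTR mice (limma adjusted p = 0.240 and 0.206). Their CTR esophagus means gave bounds of 1.34-fold and 1.22-fold, which set no least fold. The lowest detected signal of liver CTR3 (-3.97) lay above every Col24a1 value in CTR esophagi. It also lay above the Col9a1 values of esophagi CTR1 and CTR3. Col25a1 stood at -0.33 in TG mice and 0.06 in CTR mice and passed in neither. In the test of whether an organ difference itself differs between genotypes, no tested member passed.

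Probes of the same gene did not always give the same organ difference. In CTR mice 16 members had more than 1 tested probe: in 6 of them the probes agreed in sign and within 1 log2 unit, in 5 they had the same sign and lay farther apart, and in 5 they had opposite signs. These counts use fitted differences, and in 5 of the 16 no CTR liver was well above background with the dimmer probe, so that its difference has at most a lower bound. The second Col1a1 probe gave 5.60 (SE 0.67), close to the 6.11 of the brightest, but the third gave -1.48 (SE 0.57, limma adjusted p = 0.044 over all probes). This probe read -5.33, -5.03 and -3.93 in TG esophagi and -4.42, -4.89 and -5.54 in CTR esophagi, against -3.78, -1.87 and -2.26 in TG livers and -2.76, -3.39 and -4.25 in CTR livers. In each genotype every liver lay above every esophagus with this probe. The positions of the probes along the mRNA were not analysed here.

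Col2a1, the fibrillar collagen of cartilage, gave 4.59 with its brighter probe and -1.30 with the other in CTR mice, and both passed. Cartilage in the esophagus samples was checked with a list of 13 markers on the array: the median was -5.33, -6.08 and -5.10 in TG esophagi and -2.22, -4.90 and -4.84 in CTR esophagi. The list was highest in CTR1, where the brighter Col2a1 probe read 2.18, and this probe read 1.87 to 2.29 in the other 5 esophagi. The part of cartilage in the Col2a1 values was not tested. Col4a6 gave -1.30 with its brighter probe, while the other, not well above background on any CTR liver, was at least 5.96-fold higher in esophagus (limma adjusted p = 0.000461 over all probes). Col19a1, a fibril-associated collagen, gave -0.92 with its brighter probe. Its other probe was higher in esophagus (limma adjusted p = 0.00191 over all probes), with no CTR liver above background. The bound of 1.80-fold for that probe sets no least fold. The lowest detected signal of liver CTR3 (-3.97) lay above its values in esophagi CTR2 (-4.79) and CTR3 (-4.37). Col11a2 gave 0.18 and -0.86, neither of them called. Of the others, Col3a1 gave 4.84 and 0.72, and Col5a1 gave 3.46 and 0.15.

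**Figure D4:**
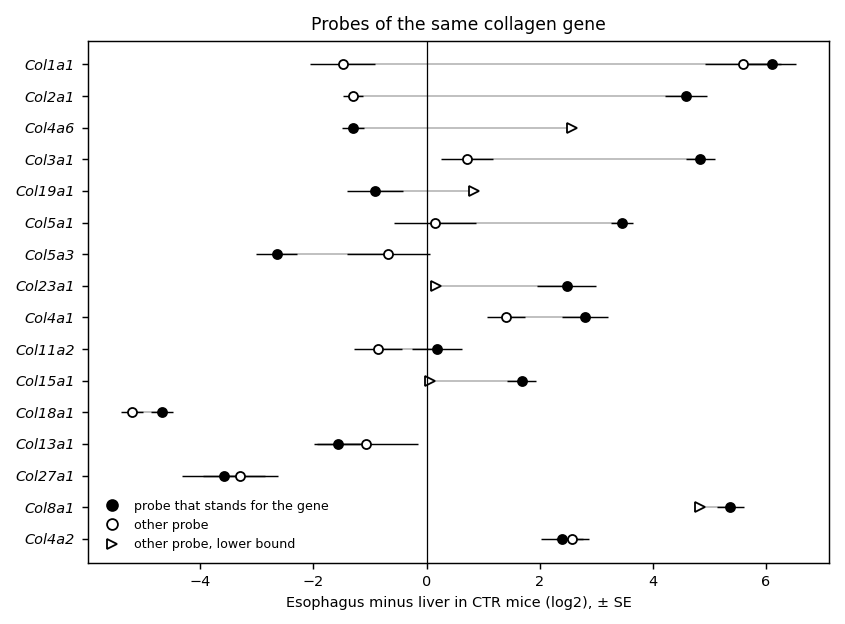
Esophagus minus liver in CTR mice (log2, horizontal axis) for each tested probe of the 16 collagen genes with several, with bars of 1 SE; filled points are the probes that stand for the gene and open points the others, and open triangles are lower bounds, with no bar, for probes not well above background on any CTR liver (Col4a6, Col8a1, Col15a1, Col19a1 and Col23a1). The triangles of Col15a1, Col19a1 and Col23a1 set no least fold, since some or all of their CTR esophagus values lay below the lowest detected signal of liver CTR3. The probes of Col1a1, Col2a1, Col4a6, Col19a1 and Col11a2 fall on both sides of 0, and those of Col4a2 and Col27a1 nearly coincide.

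Enzymes and partners of collagen moved with the organ as well. Of 26 tested genes that fold, modify or cut collagen chains, 16 were higher in esophagus and 5 lower in TG mice, and 16 and 6 in CTR mice, where 24.3% of all genes were called higher and 38.9% lower in TG mice, and 27.8% and 34.6% in CTR mice. Serpinh1, the collagen chaperone of the endoplasmic reticulum, was higher in esophagus by 3.71 (SE 0.15) in TG mice and 4.15 (SE 0.15) in CTR mice, and Fkbp10, a prolyl isomerase of procollagen, by 3.50 and 3.86. Bmp1, which removes the C-terminal propeptide, was lower in esophagus by a difference of -2.27 in CTR mice. Against the same shares of all genes, among 10 partners on the fibril 8 were higher and 1 lower in TG mice, and 7 and 1 in CTR mice: Lum, a proteoglycan of fibril spacing, differed by 4.32 in TG mice and 4.90 in CTR mice, whereas Fn1, fibronectin, which hepatocytes secrete, differed by -2.52 in CTR mice. Of 5 collagen receptors, beside those shares too, 3 were higher and 1 lower in both genotypes, with Itga11, an integrin chain of fibroblasts, at 5.16 in TG mice and 5.55 in CTR mice.

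All 9 fibroblast markers were higher in esophagus in both genotypes, where 24.3% of all genes were called higher in TG mice and 27.8% in CTR mice. Their median was 2.42 to 2.68 in TG esophagi and 2.58 to 2.88 in CTR esophagi, against -1.86 to -1.01 in TG livers and -2.15 to -1.74 in CTR livers. All 5 smooth muscle, all 5 skeletal muscle and all 6 keratinocyte markers were also called higher in both genotypes. Of 8 hepatic stellate cell markers tested in TG mice 2 were higher and 5 lower, and of 7 in CTR mice 2 and 3. Of all genes 38.9% in TG mice and 34.6% in CTR mice were called lower. The part of these cell types in the collagen differences was not tested.

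Whether the transgene changed the collagens, and Col1a1 as its host gene in particular, was asked next by comparing TG with CTR in each organ. No collagen gene passed in esophagus: 0 of 35 tested members were called by limma, where 0% of all 23212 genes were called in either direction, 2 members had an unadjusted p under 0.05, and the smallest adjusted p of a member was 1.00. No collagen gene passed in liver either: 0 of 26 were called, where 0% of 21251 genes were, 3 had an unadjusted p under 0.05, and the smallest adjusted p was 0.574. Across all genes 923 (3.98%) in esophagus and 1770 (8.33%) in liver had an unadjusted p under 0.05.

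The brightest Col1a1 probe averaged 4.71 ± 0.20 (SD, n = 3) in TG esophagi and 4.82 ± 0.27 (SD, n = 3) in CTR esophagi, a difference of -0.11 with a 95% interval of -1.03 to 0.82. In livers it averaged -0.64 ± 0.53 (SD, n = 3) with the transgene and -1.29 ± 0.92 (SD, n = 3) without, a difference of 0.65 with an interval of -0.26 to 1.56. TG and CTR values overlapped in both organs. The second probe differed by 0.18 (SE 0.67) in esophagus and 1.02 (SE 0.66) in liver, and the third by 0.19 (SE 0.57) and 0.84 (SE 0.56). For the brightest probe the esophagus interval reaches below -1 and the liver interval above 1, so changes of that size are not excluded on those sides. With 1 liver left out, the liver difference of the brightest probe ran from 0.27 (without CTR3) to 1.16 (without CTR1), and without TG3 it was 0.95.

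Col1a2, which holds no transgene, differed by -0.03 in esophagus, with an interval of -0.42 to 0.35. In liver its 3 TG values all lay above its 3 CTR values, and it differed by 0.53 (SE 0.17), with an interval of 0.15 to 0.92 and the smallest adjusted p among the collagens (limma, 0.574). Without liver TG3 it was 0.54. Col3a1 differed by 0.04 (SE 0.25) in esophagus and 0.36 (SE 0.25) in liver, with TG and CTR overlapping in both, and its liver value ran from 0.16 (without TG1) to 0.62 (without CTR1).

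**Figure D5:**
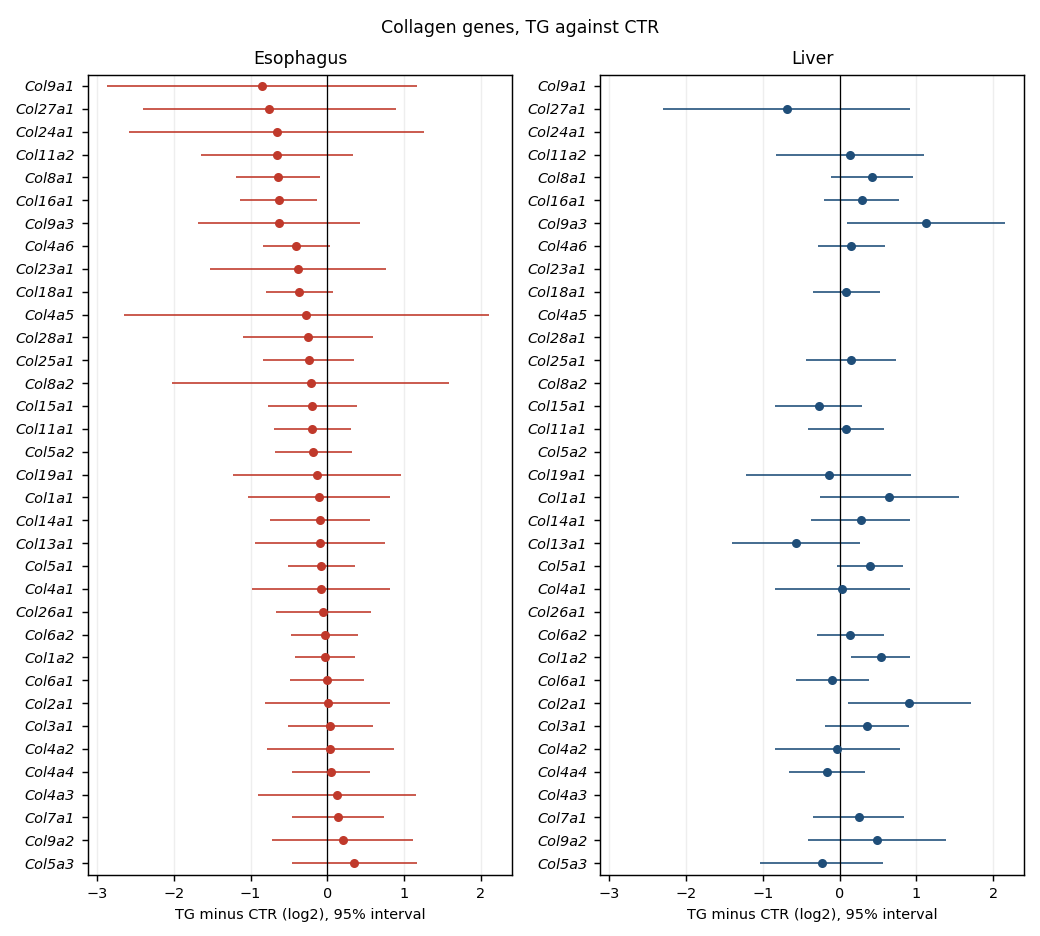
TG minus CTR (log2, horizontal axes) with 95% intervals for each tested collagen gene, esophagus on the left and liver on the right, in the order of the esophagus differences; a row without a point was not tested in that organ. Col8a1 and Col16a1 in esophagus and Col1a2, Col2a1 and Col9a3 in liver have intervals clear of 0, and none of them passed after adjustment over all genes.

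In esophagus the members leaned low in TG mice. The mean was lower in TG than in CTR for 27 of 35 and higher for 8, whereas 49.6% of all genes had a higher TG mean, and the median difference was -0.14 over the members and -0.00 over all genes. This lean depended on single mice and on slides: 15 of 35 had a higher TG mean without CTR1, 14 without TG1, 4 without CTR2 and 5 without TG2. With slide as a fixed block 19 of 35 did, at a median of 0.08 over the members and 0.06 over all genes. In 4 members, Col16a1, Col4a6, Col27a1 and Col23a1, all TG values lay below all CTR values, where this held for 6.13% of all genes; in none did all lie above, where 6.34% of all genes had that order.

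Col16a1 read 2.83, 2.86 and 3.19 in TG esophagi and 3.50, 3.23 and 4.06 in CTR esophagi, a difference of -0.64 (SE 0.23). Col8a1 read 3.08, 3.14 and 3.56 in TG esophagi and 4.04, 3.55 and 4.10 in CTR esophagi, also a difference of -0.64 (SE 0.25). The groups just overlapped for Col8a1 and did not overlap for Col16a1. Col4a6, the type IV chain of epithelial and smooth muscle basement membranes, read -0.22, -0.62 and -0.59 in TG esophagi and -0.20, -0.08 and 0.07 in CTR esophagi. Col18a1 differed by -0.37 (SE 0.20), with its highest TG value at 2.23 and its lowest CTR value at 2.13.

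The other classes gave smaller or noisier differences. Col11a2 read -2.75, -2.89 and -2.94 in TG esophagi and -1.65, -2.90 and -2.07 in CTR esophagi, so that its mean difference of -0.65 came with CTR1 as the highest array. Col9a3 differed by -0.63 (SE 0.47) and Col27a1 by -0.76 (SE 0.74). Col15a1 differed by -0.20, Col25a1, a transmembrane collagen first known from brain, by -0.24, and Col23a1 by -0.38 (SE 0.52). Among positive differences, Col5a3 was at 0.35 (SE 0.37), Col9a2 at 0.20 (SE 0.41), Col7a1 at 0.14 (SE 0.27) and Col4a3 at 0.12 (SE 0.47), each smaller than its error. Beaded filament chains stood at -0.01 for Col6a1 and -0.04 for Col6a2, and the 35 members ran from -0.85 for Col9a1 (SE 0.91) to the 0.35 of Col5a3.

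Markers of neighbouring tissue differed among the esophagi too. The fat list had medians of -0.25, 2.84 and -0.28 in TG and 3.21, 3.11 and 2.55 in CTR, the heart list 0.78, 1.29 and 0.93 in TG and 4.90, 1.78 and 3.66 in CTR, and the airway list -4.97, 2.13 and -3.32 in TG and 3.81, 0.02 and 1.26 in CTR. Smooth muscle markers stood at 3.98, 4.40 and 4.34 in TG and 5.04, 4.62 and 4.87 in CTR. Heart and airway tissue is not part of the esophagus wall, and smooth muscle is. All 6 fat markers and all 5 heart markers had a lower TG mean, where 49.6% of all genes had a higher one, and no such marker was called. The part of these tissues in the collagen values was not tested.

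In liver the members leaned high in TG mice, as did all genes. The mean was higher in TG for 18 of 26 members, where 66.4% of all genes had a higher mean, and the median difference was 0.15 over the members and 0.13 over all genes. With quantile normalization in place of the percentile the members' median was -0.00, with 13 of 26 higher, and that of all genes 0.02. When slide was the fixed block the members' median was 0.30, with 20 of 26 higher, and that of all genes 0.13. In 2 members, Col1a2 and Col8a1, each TG value exceeded each CTR value, where 8.45% of all genes did so; in none did they lie below, where 2.88% did.

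The members of smallest p after Col1a2 were Col2a1, Col9a3 and Col5a1. Col2a1 read -1.96, -2.11 and -0.73 in TG livers and -1.89, -2.76 and -2.87 in CTR livers, a difference of 0.91 (SE 0.36) that was 0.47 without TG3. Its other probe stood at -0.20 (SE 0.17). Col9a3 read -3.16, -4.26 and -2.53 in TG livers and -4.22, -4.05 and -5.06 in CTR livers, a difference of 1.13 (SE 0.47) that was 0.73 without TG3. In both genes TG3 held the highest liver value. Col5a1 read -0.97, -1.21 and -0.95 in TG livers and -1.11, -1.51 and -1.69 in CTR livers, a difference of 0.39 (SE 0.20). Col8a1 differed by 0.42 (SE 0.24).

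Negative differences in liver were within their errors or overlapped. Col13a1 stood at -0.57 (SE 0.38), Col15a1 at -0.27 (SE 0.26), Col27a1 at -0.69 (SE 0.73) and Col4a4 at -0.17 (SE 0.22). With 1 liver left out, Col13a1 ran from -0.89 (without CTR1) to -0.20 (without TG1), Col15a1 from -0.47 (without TG1) to -0.04 (without TG3) and Col4a4 from -0.34 (without TG3) to -0.0043 (without TG2). Col27a1 followed livers TG2 and CTR1 as described, and without TG2 its difference was 0.02. Col18a1, which favoured the liver most, differed by 0.09 (SE 0.20) between genotypes.

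Markers of the collagen-making cells of the liver were read beside these values. The fibroblast list had medians of -1.86, -1.74 and -1.01 in TG livers and -1.74, -1.98 and -2.15 in CTR livers, and the hepatic stellate cell list -0.28, -0.25 and -0.09 in TG and -0.45, -0.23 and -0.41 in CTR. Of the tested members 7 of 8 in each list had a higher TG mean, where 66.4% of all genes did, and no list member was called. Their part in the collagen values was not tested.

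The other genes of the pathway did not pass between genotypes in either organ. Of the maturation list 0 of 26 in esophagus and 0 of 22 in liver were called, with medians of -0.07 and 0.16. Plod1, a lysyl hydroxylase, stood at -0.82 (SE 0.23) in liver and P3h2, a prolyl 3-hydroxylase, at 1.15 (SE 0.35), each with a limma adjusted p of 0.574. Fn1 stood at -0.87 (SE 0.23) in liver. Of the receptors 0 of 5 and 0 of 3 were called, and of the fibril partners 0 of 10 and 0 of 9.

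The difference between the organs in their response, TG minus CTR in esophagus minus the same in liver, was tested for the 26 members measured in both. None was called, where 0% of 20021 genes were, and 4 had an unadjusted p under 0.05, against 5.66% of all genes. Those 4 were Col8a1 at -1.06 (SE 0.34), Col16a1 at -0.92 (SE 0.31), Col9a3 at -1.75 (SE 0.65) and Col1a2 at -0.57 (SE 0.24), with limma adjusted p = 0.855 for each. Col1a1 stood at -0.76 (SE 0.58), with a 95% interval of -2.03 to 0.52. The median was -0.30 over the members and -0.11 over all genes. It was -0.13 over the members and -0.01 over all genes with normexp and with the authors' deposited table, which hold nearly the same values. With quantile normalization of the processed signal it was -0.17 and 0.00. Among positive values Col5a3 was at 0.59 (SE 0.51), Col13a1 at 0.47 (SE 0.53), Col4a4 at 0.21 (SE 0.32) and Col6a1 at 0.08 (SE 0.30).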

How the data were processed

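RNA of 6 mice was measured on 12 one-colour Agilent 4x44K arrays (1 µg RNA, integrity numbers 7.3 to 9.5, per the labels). The deposited spot intensity values were made with Agilent Feature Extraction 10.7.1.1, which subtracts background within an array, per the file headers. A processed log2 table deposited by the authors served as an alternative. Each of its columns had a median of 7.27, it is not centred by gene, and how its background was treated was not stated in the sources used. limma is named in the submitters' processing notes.

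Control spots and 1311 outlier spots were left out, spots of a probe averaged, and 0 spots were saturated. Accessions were looked up in RefSeq (GRCm38.p6), naming 23366 of 41174 probes. The design is annotated on mm8, so no probe coordinates are given. The brightest probe stood for a gene, tested where well above background on all 3 arrays of a group compared. One fit over 4 groups (limma 3.58.1, R 4.3.3, data.table version 1.17.8; 8 residual degrees of freedom) gave two-sided tests, Benjamini-Hochberg adjusted over all tested genes. No p is adjusted over the collagens alone. The procedure was tested on simulated data. Figures used Python 3.11.15, pandas 2.3.3 and matplotlib 3.10.9.

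The members, lists and tests were chosen with earlier results of these data known. Named genes are Col1a1, Col1a2 and Col3a1, the 4 members of smallest p per direction in each TG contrast, the 4 largest organ differences per direction, up to 2 members per class, every gene whose probes disagree, and up to 3 per list; other members and Per2 were chosen after their values were seen. The labels call the mice biological replicates. Replicate numbers shared by TG and CTR pair nothing by the labels (correlations of deviations -0.32 to 0.05), whereas an animal gave both organs (-0.09 to 0.15), and the animal block was fitted for organ contrasts. Normalization, dim-value, probe, weight, slide, block and leave-one-out alternatives were run.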

Additional observations from a re-analysis of the deposited data

How the results depend on the processing

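No collagen gene was called between TG and CTR, or for the difference between organs, under any alternative run. Organ calls kept their counts within 1.5 times, except the lower calls with every probe on its own. There 12 collagen probes in TG mice and 9 in CTR mice were lower in esophagus, against 7 and 5 genes. In CTR mice these included the third Col1a1 probe and the second Col2a1 probe, whose genes were called higher with the brightest probe. With one array left out, 19 to 20 members in TG mice and 19 to 23 in CTR mice were higher in esophagus. Background treatment and a common floor set the size of organ differences with dim liver signals: with normexp, Col5a2 in CTR mice stood at 3.66 and Col9a3 in TG mice at -0.48. Small genotype differences in esophagus turned sign: Col1a1 stood at 0.0088 with the authors' table and 0.13 with slide as a fixed block, Col1a2 at 0.044 with normexp, 0.046 with the authors' table and 0.14 with slide, and Col9a2 at -0.027 with slide; the cause was not tested. With one array left out, esophagus values ran from -0.26 to 0.0012 for Col1a1, -0.078 to 0.031 for Col1a2, -0.020 to 0.14 for Col3a1, -0.063 to 0.76 for Col5a3, -0.094 to 0.33 for Col7a1, -0.11 to 0.47 for Col9a2 and -0.20 to 0.48 for Col4a3, and liver values from -1.57 to 0.024 for Col27a1. In CTR mice the Col4a4 call was lost with slide as a fixed block (0.78), that of Col14a1 with array weights (0.84), and that of Col28a1 with normexp (0.23), the authors' table (0.24) and the common floor. Of 1794 single-gene alternatives 1754 kept direction and call, 22 lost the call and 18 turned sign. All of them used the brightest probe of the gene, so probes of opposite sign are not among the 18. A gene not called in the main fit counted as kept where it stayed uncalled with the same sign. The replicate number as a block changed no count (0 called in esophagus and in liver), and the animal block ended no call but that of Col9a2. Normexp on mean spot signals and naming from scanner files were not run, and normexp used median spot signals instead. Dim signals are limited by background, and 3 mice a group by number.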

Other observations

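In 9 of 11 clock genes, Per2 among them and all chosen after values were seen, livers TG2 and CTR1 both lay above or both lay below the other 4 livers. The share of all genes with this order was not counted, so the 9 of 11 has nothing to be read against. Ciart, a repressor of the circadian clock, read -4.30 in liver TG2 and -3.83 in liver CTR1, against 0.24 to 0.44 in the other 4 livers. Arntl, the activator of the clock loop, read -0.10 in TG2 and 0.19 in CTR1, against -3.46 to -1.52 in the others. Tef, a transcription factor whose level follows the clock, read 1.62 in TG2 and 2.05 in CTR1, against 3.42 to 3.72 in the others. The other 2 were Nr1d1, which read -0.11 in TG2 and 0.49 in CTR1, against -1.43 to 0.27 in the others, and Npas2, which read -4.72 in TG2 and -5.46 in CTR1, against -5.70 to -3.15 in the others. Clock genes differed among the esophagi as well. Per2 read -2.92, -2.46 and -0.73 in TG esophagi and -0.41, 0.26 and 0.26 in CTR esophagi. For Nr1d1 the groups overlapped, at 1.37, 1.07 and 1.42 in TG and 1.42, 0.03 and 0.14 in CTR. All of these are values of single mice with no test, and their part in the collagen values was not tested.

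Neighbouring collagen genes did not always move alike between the organs. Col3a1 and Col5a2, neighbours on chromosome 1, differed by 4.52 and 4.78 in TG mice and by 4.84 and 5.48 in CTR mice. Col4a5 and Col4a6, neighbours on chromosome X, differed by 4.03 and -1.86 in TG mice and by 3.71 and -1.30 in CTR mice, although the second Col4a6 probe was at least 5.96-fold higher in esophagus in CTR mice.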
